A study of Mus musculus with 6 samples.

Results

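Chromatin accessibility was examined at the genes of the interferon regulatory factor (IRF) family in mouse leukaemia cells, with 184 of the 175929 peaks of an ATAC-seq table. ATAC-seq uses a transposase that inserts sequencing adapters into open DNA, so that the number of tags in a peak measures how open it was. A peak belonged to the family where the table gave Irf1, Irf2, Irf3, Irf4, Irf5, Irf7, Irf8, Irf9 or Irf2bp2 as the gene with the nearest transcription start site and that site lay within 100000 bp. Irf2bp2 encodes a corepressor that binds Irf2 and is not itself an IRF. The 9 genes held unequal numbers of peaks, with 65 at Irf2bp2, 31 at Irf8, 26 at Irf2, 19 at Irf7, 17 at Irf1, 12 at Irf5, 6 at Irf9 and 4 each at Irf3 and Irf4.

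The cells were fetal liver cells of Usp18+/f UBCER-Cre mice that had been transduced with AE9a, a truncated AML1/ETO fusion protein that drives acute myeloid leukaemia, and had grown in irradiated recipient mice. Usp18 encodes a protease that restrains interferon signalling. The recipients were given corn oil (replicates 1, 2 and 4) or tamoxifen in oil (replicates 1, 3 and 4), and the spleen was taken 3 days after injections began to sort lineage-negative c-Kit-positive leukaemia cells. Both groups carried AE9a, 1 floxed Usp18 allele and the Cre, which a ubiquitin promoter drives in every tissue, and the oil group received no tamoxifen, so that an effect of the drug and an effect of losing the allele cannot be told apart. Since no label ties a library to a mouse of its own, n counts libraries and a p-value measures the spread between them.

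IRFs bind DNA through an amino-terminal domain that recognises GAAA repeats. Irf3, Irf5 and Irf7 are switched on by kinases downstream of nucleic acid sensors and induce type I interferons, Irf9 is the DNA-binding subunit of a complex that interferon activates, Irf1 and Irf2 act on the same sites as activator and repressor, and Irf4 and Irf8 mostly bind with partners of the Ets and AP-1 families and direct lymphoid, dendritic and myeloid fates. Mice that lack Irf8 develop an overgrowth of granulocytes.

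Sequences of 6 peaks are given here because the results turn on them or because they hold an element through which interferon is known to act. All are read from the plus strand of mm10, and stretches within annotated untranslated exons were left out. Capitals mark matches on either strand to the interferon-stimulated response element (ISRE, GAAANNGAAA), the Ets-IRF composite element (GGAANNGAAA), the interferon-gamma activated site (GAS, TTCNNNGAA), the Runx core (TGTGGT), the site of the GATA factors (AGATAA) or an AP-1 site (TGANTCA), where N is any base. The Irf8 start-site peak (chr8:120736158-120736357 printed), which had the highest fold change among the start-site peaks, held 2 GAS matches.
Irf8 start site: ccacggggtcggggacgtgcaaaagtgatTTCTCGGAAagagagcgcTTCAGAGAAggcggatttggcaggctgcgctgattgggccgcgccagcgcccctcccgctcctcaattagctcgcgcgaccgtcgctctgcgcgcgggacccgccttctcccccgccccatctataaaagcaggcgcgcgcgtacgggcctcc
The Irf1 start-site peak (chr11:53769808-53770013 printed) held 1 GAS match.
Irf1 start site: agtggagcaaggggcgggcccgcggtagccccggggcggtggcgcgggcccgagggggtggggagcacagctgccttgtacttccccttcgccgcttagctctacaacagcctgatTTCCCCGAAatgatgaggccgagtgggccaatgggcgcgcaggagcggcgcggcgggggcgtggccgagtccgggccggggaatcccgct
The peak in the first intron of Irf7 (chr7:141266045-141266163 printed) held 1 ISRE match.
Irf7 first intron: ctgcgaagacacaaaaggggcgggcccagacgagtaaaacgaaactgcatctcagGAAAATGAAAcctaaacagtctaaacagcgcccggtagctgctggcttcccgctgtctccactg
The peak in the 3′ part of Irf7 (chr7:141264065-141264364 printed) and the peak downstream of Irf1 (chr11:53795293-53795557) passed the test for a difference between the groups. Of the 769 bases of this Irf7 peak, 300 are printed, from the middle of its longest stretch outside untranslated exons. The printed bases of both peaks held none of the 6 elements, and the whole Irf7 peak held 1 Runx and 1 GATA match. The other peak that passed, at Irf7 +4012 bp, is not printed and also held 1 Runx and 1 GATA match.
Irf7 intron 6: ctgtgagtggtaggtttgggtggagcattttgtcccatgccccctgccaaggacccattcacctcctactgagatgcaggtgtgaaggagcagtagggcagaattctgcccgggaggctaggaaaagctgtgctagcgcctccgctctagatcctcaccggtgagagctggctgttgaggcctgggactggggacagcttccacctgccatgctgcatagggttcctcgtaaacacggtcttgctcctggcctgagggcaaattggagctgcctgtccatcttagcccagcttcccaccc
Irf1 +24952: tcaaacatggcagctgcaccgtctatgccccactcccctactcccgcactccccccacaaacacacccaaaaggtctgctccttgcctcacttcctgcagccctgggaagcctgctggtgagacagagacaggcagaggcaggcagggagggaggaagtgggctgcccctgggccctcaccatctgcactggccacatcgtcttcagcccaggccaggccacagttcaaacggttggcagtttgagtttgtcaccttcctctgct
The strongest distal peak of Irf2, in its first intron (chr8:46789556-46789855 printed), held 1 Ets-IRF and 2 GATA matches.
Irf2 +49960: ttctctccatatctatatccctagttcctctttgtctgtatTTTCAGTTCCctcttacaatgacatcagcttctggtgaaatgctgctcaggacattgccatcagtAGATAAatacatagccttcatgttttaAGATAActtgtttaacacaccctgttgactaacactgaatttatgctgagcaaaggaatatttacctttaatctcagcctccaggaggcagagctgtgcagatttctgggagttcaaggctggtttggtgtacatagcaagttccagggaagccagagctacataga

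Total tags ran from 57.4 to 74.7 M per library, and 28.2% to 30.5% of them lay in peaks. With a median of 45 to 57 tags per peak, counting error weighed on many member peaks. Values below are tags normalised by DESeq2 size factors unless a fold change is named. The libraries of the tamoxifen group differed among themselves at several of these genes, where replicate 4 lay nearer to the oil libraries than replicates 1 and 3 did. Over the whole table, leaving out tamoxifen replicate 4 raised the number of peaks at an adjusted p under 0.05 from 2448 to 6529, whereas leaving out any other library lowered it to between 629 and 1078. The sort was for lineage-negative cells, and the start sites of all 4 progenitor markers (Kit, Myb, Cd34 and Gata2) held peaks. By contrast, no peak lay within 3000 bp of the start sites of Ly6g, S100a8, S100a9 and Csf1r among 6 mature myeloid markers, of Siglech, Xcr1 and Clec9a among 6 dendritic markers, of Cd79b, Ms4a1 and Pax5 among 6 B-cell markers, or of Cd3d, Cd4 and Cd8a among 6 T-cell markers. All 5 erythroid markers held one. The peak at the Usp18 start site, which does not measure the deletion, had 459, 415 and 439.9 tags after oil and 441, 468 and 438 after tamoxifen (replicates in the order above).

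Of the 184 peaks of the family, 3 passed an adjusted p of 0.05, all higher after tamoxifen, 2 at Irf7 and 1 at Irf1. This was 1.63% of the family, close to the 1.39% of all 175929 peaks that passed (1.22% higher and 0.167% lower after tamoxifen). None (0) of the family passed an adjusted p of 0.05 with a fold change over 2, the limit of the study's methods, against 0.654% of all peaks; with edgeR none passed it either. At an unadjusted p under 0.05 there were 19 of 184 peaks (10.3%, against 9.02% of all peaks), of which 16 were higher (8.70%, against 6.18%) and 3 lower (1.63%, against 2.84%). The 3 tamoxifen libraries lay above the 3 oil libraries at 24 peaks (13.0%, against 11.8% of all peaks) and below them at 17 (9.24%, against 9.99%). The family as a whole was thus near the background of the table. The 3 calls were lost when any 1 of 5 libraries was left out, and remained when tamoxifen replicate 4 was. The number at an adjusted p under 0.05 was 0 without oil replicate 1, 2 or 4 or tamoxifen replicate 1 or 3, where 0.358% to 0.613% of all peaks passed. It was 8 (the 3 among them) without tamoxifen replicate 4, where the share of all peaks also rose, to 3.71%. Without that library the number past both limits was 2. The share of all peaks past both limits is not given for that fit, so these 2 peaks cannot be set against it. They were the Irf1 peak at +24952 bp (log2 fold change 1.01, DESeq2 adjusted p = 0.0178) and the Irf8 peak at +9650 bp (1.37, adjusted p = 0.00363). The Irf8 peak came from the tamoxifen list alone, so it entered the table through the group where it was high.

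The start sites of the family were open in both groups. The peak nearest the start site was highest per kb of peak at Irf1 (2793 tags per kb, mean of the 6 libraries), followed by Irf9 (2726), Irf3 (2627) and Irf7 (2020). These were above the upper quartile (1894 tags per kb) of the 30410 peaks within 1000 bp of a start site, for which the median was 706. Irf2 had 1013 tags per kb, Irf2bp2 839, Irf5 737, Irf4 529 and Irf8 429. Irf3 shares its start-site peak with the divergent gene Bcl2l12, so that the 2 promoters cannot be told apart there. None of the 9 start-site peaks passed an adjusted p of 0.05. At Irf9, tags were 600.1, 571 and 545 after oil and 572, 595 and 551 after tamoxifen, a log2 fold change of 0.00 (SE 0.09, DESeq2 adjusted p = 0.999). Irf1, Irf3, Irf5 and Irf7 had log2 fold changes of 0.07, 0.04, 0.14 and 0.08, and Irf2 and Irf2bp2 had -0.05 and -0.18, with adjusted p from 0.763 to 0.987. At Irf4, which directs plasma cell and dendritic fates, the 3 tamoxifen values (133, 116 and 142 tags) lay above the oil values (113, 109 and 108 tags). Its log2 fold change was 0.25 (SE 0.18, DESeq2 adjusted p = 0.784).

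**Figure D1:**
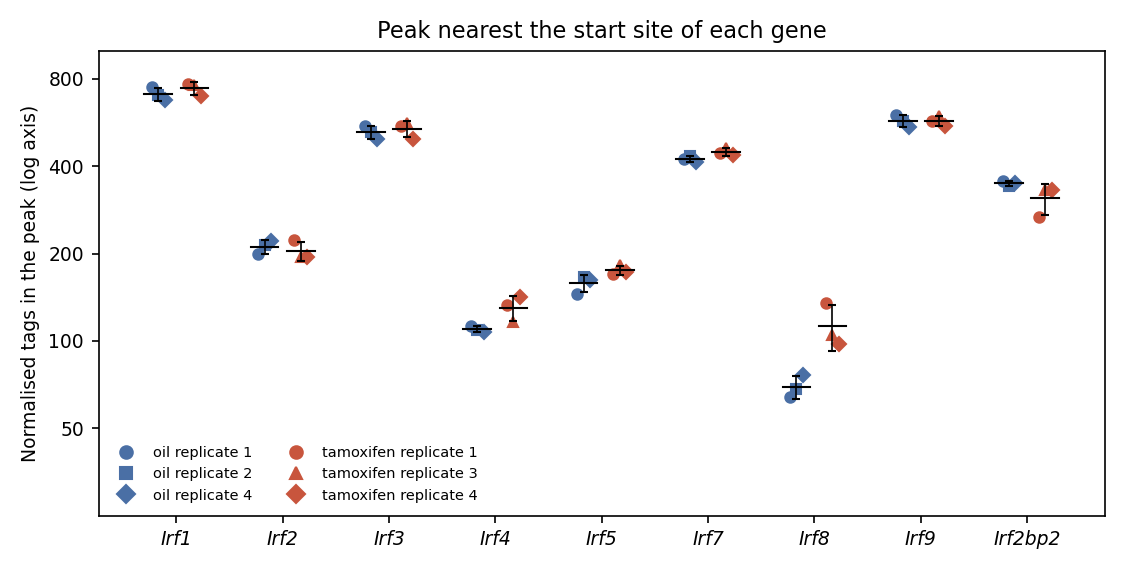
Normalised tags (log axis) in the peak nearest the start site of each of the 9 genes, by library, with the mean and SD of each group as a bar and whiskers. The groups overlap at Irf1, Irf2, Irf3 and Irf9, and at Irf8 the tamoxifen libraries (97.8 to 135 tags) lie above the oil libraries (64.0 to 76.2 tags). Tamoxifen libraries also lie above oil at Irf4, Irf5 and Irf7, and below oil at Irf2bp2.

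Of the peaks nearest the start sites, the groups did not overlap at Irf4, Irf5, Irf7 and Irf8 (tamoxifen above oil) and at Irf2bp2 (tamoxifen below oil). Over all peaks of the table, the groups did not overlap in 11.8% (tamoxifen above oil) and 9.99% (tamoxifen below oil). At the start sites other than that of Irf8, log2 fold changes ran from -0.18 at Irf2bp2 to 0.25 at Irf4. The Irf8 start site had the largest fold change in this series of promoters. It held 64.0, 68.3 and 76.2 tags after oil and 135, 105 and 97.8 tags after tamoxifen, with every tamoxifen library above every oil library. The log2 fold change was 0.69 (SE 0.21), with an adjusted p of 0.0654 in DESeq2, just short of the threshold. It passed with edgeR (adjusted p = 0.0233), with promoter-proximal peaks fitted apart from distal ones (adjusted p = 0.0278), and without tamoxifen replicate 4 (log2 fold change 0.79, adjusted p = 0.0201). It did not pass without any of the other 5 libraries, where the adjusted p ran from 0.217 to 0.667 and the log2 fold change from 0.54 to 0.77. It is the peak with 2 GAS matches printed above.

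Elsewhere at the Irf8 locus no peak passed an adjusted p of 0.05, and the tamoxifen libraries were split. Of its 31 peaks, 13 came from the tamoxifen peak list alone and 5 from the oil list alone, and a peak of a single list entered the table through the group where it was high. All 13 of the tamoxifen list alone had a positive log2 fold change, as did 82.9% of such peaks in the whole table, and they are left out of the counts that follow. Of the 13 peaks in both lists, the start site included, 12 had a positive log2 fold change (median 0.32, range -0.03 to 0.69), against 52.8% of all peaks in both lists (median 0.01). Tamoxifen replicates 1 and 3 each lay above all 3 oil libraries at 12 of these 13 peaks, whereas replicate 4 did so at 5 and lay below all 3 at 3. Over all peaks in both lists the shares above were 33.9%, 37.1% and 30.2% for replicates 1, 3 and 4. Summed over the 13 peaks, tags were 893.5, 900.0 and 911 after oil and 1287, 1178 and 910.7 after tamoxifen, so that the groups overlapped through replicate 4 alone. The tallest distal peak, 57786 bp downstream of the start site (chr8:120796322-120796528) and in both lists, held 183, 182 and 175 tags after oil and 247, 229.5 and 190.0 after tamoxifen, with a log2 fold change of 0.30 (SE 0.15, DESeq2 adjusted p = 0.493). Among the peaks of the tamoxifen list alone, the one in intron 5 of 8 (chr8:120748109-120748470) held 26.5, 19.5 and 26.9 tags after oil and 69.6, 55.7 and 16.8 after tamoxifen. Its log2 fold change was 0.96 (SE 0.41, DESeq2 adjusted p = 0.366), and depended on the libraries used: 1.37 (adjusted p = 0.00363) without tamoxifen replicate 4, 0.56 (adjusted p = 1.0) without replicate 1 and 0.83 (adjusted p = 1.0) without replicate 3.

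Irf7, which is itself induced by interferon and amplifies the type I interferon response, held 2 of the 3 peaks that passed. Both lay in or just beyond the 3′ part of the gene. The peak around intron 6 of 8 (chr7:141263769-141264537, +2271 bp) held 245, 242 and 263 tags after oil and 335, 411 and 309 after tamoxifen, and rose by a log2 fold change of 0.49 (SE 0.13, DESeq2 adjusted p = 0.0173). The peak just past the end of the gene (chr7:141262177-141262647, +4012 bp), which overlaps the convergent gene Phrf1, held 68.4, 65.3 and 72.6 tags after oil and 133, 134 and 96.8 after tamoxifen, and rose by 0.81 (SE 0.21, adjusted p = 0.0120). Between them, the peak over the end of the gene (chr7:141262757-141263448, +3322 bp) held 130.2, 115 and 136 tags after oil and 175, 227 and 162 after tamoxifen, with a log2 fold change of 0.56 (SE 0.17, adjusted p = 0.0634). All 3 peaks were in the lists of both groups, and at all 3 every tamoxifen library lay above every oil library.

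The 5′ part of Irf7 did not show a rise as large as that in the 3′ part. The start-site peak held 423.6, 434.9 and 413.9 tags after oil and 444.6, 463.5 and 437.6 after tamoxifen, again without overlap. Its log2 fold change was 0.08 (SE 0.10, DESeq2 adjusted p = 0.939). The first-intron peak with the ISRE match held 270.3, 302 and 305 tags after oil and 299, 319 and 276 after tamoxifen, with a log2 fold change of 0.02 (SE 0.12, adjusted p = 0.995). The peak over exon 4 of 9 (+1138 bp) held 385, 392 and 398 tags after oil and 381, 371 and 346 after tamoxifen, so that the tamoxifen libraries were the lower ones there, by a log2 fold change of -0.10 (SE 0.11, adjusted p = 0.917). Summed over the 6 peaks from 3000 bp before to 1000 bp after the start site, tags averaged 1067 ± 45.1 in the oil libraries and 1112 ± 24.6 in the tamoxifen libraries (SD, n = 3 each). This window was drawn after the values were seen, as was the next one. Farther on, in the body of Phrf1, the tamoxifen libraries parted. At the 8 Irf7-assigned peaks beyond 4500 bp, tamoxifen replicates 1 and 3 lay above all oil libraries at all 8, and replicate 4 lay below all oil libraries at 7. Their summed tags were 417, 470.0 and 488 after oil and 679.5, 682 and 331 after tamoxifen, and 2 of the 8 came from the tamoxifen list alone.

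**Figure D2:**
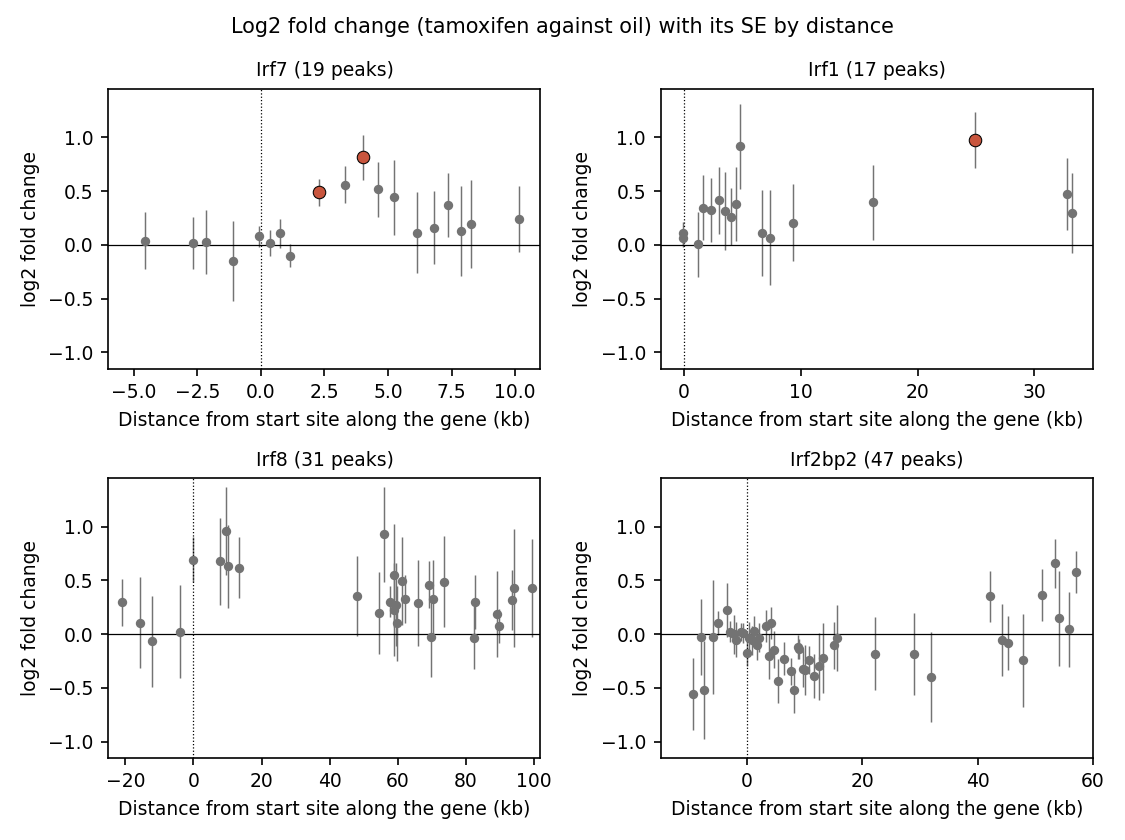
Log2 fold change with its SE against distance from the start site in kb, in the direction of transcription, at Irf7, Irf1, Irf8 and Irf2bp2 (47 of the 65 Irf2bp2 peaks, those from 15 kb before to 60 kb after the start site); filled red points passed an adjusted p of 0.05. Fold changes at Irf7 are near 0 around the start site and positive from +2271 bp on. Irf8 peaks are mostly positive, and the Irf2bp2 peaks from 4000 to 13000 bp downstream are mostly negative.

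Irf1, an activator of interferon-responsive genes that is induced by interferon-gamma, held the other peak that passed. It lies 24952 bp downstream of the start site in an intron of the neighbouring gene Gm12216 (chr11:53795293-53795557). Tags were 32.0, 49.7 and 43.0 after oil and 96.7, 71.3 and 78.2 after tamoxifen, without overlap, and the peak rose by a log2 fold change of 0.98 (SE 0.26, DESeq2 adjusted p = 0.0173). The Irf1 start-site peak, whose GAS match is printed above, held 748, 706 and 676 tags after oil and 768, 762 and 697 after tamoxifen, with a log2 fold change of 0.07 (SE 0.09, adjusted p = 0.946). It was in the lists of both groups, as was the called peak. All 17 Irf1 peaks had a positive log2 fold change, against 49.7% of all peaks. Of the 17, 4 came from the tamoxifen list alone, where 82.9% of such peaks in the whole table were positive, and 2 from the oil list alone. The 11 in both lists, all positive against 52.8% of all peaks in both lists, ran from 0.00 to 0.98 with a median of 0.30. A peak in intron 8 of 9 (+4826 bp), of the tamoxifen list alone, was next in size, with 17.6, 21.4 and 13.4 tags after oil and 30.9, 42.3 and 26.1 after tamoxifen, a log2 fold change of 0.92 (SE 0.39, adjusted p = 0.368). As at Irf8, replicates 1 and 3 of the tamoxifen group lay above all oil libraries at most of the 11 Irf1 peaks in both lists (9 and 10), whereas replicate 4 did so at 1 and lay below all oil libraries at 3.

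**Figure D3:**
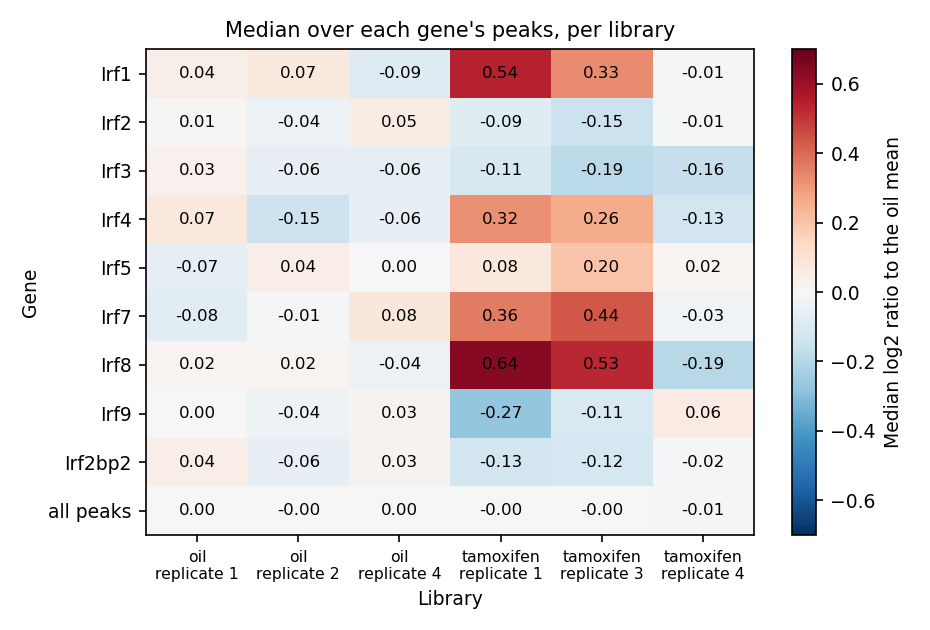
Median over each gene's peaks of the log2 ratio (tags plus 1) to the oil mean, with 1 column per library and all 175929 peaks in the bottom row. Tamoxifen replicates 1 and 3 reach 0.64 and 0.53 at Irf8 and 0.54 and 0.33 at Irf1, whereas tamoxifen replicate 4 has -0.19 and -0.01 there; peaks of the tamoxifen list alone (13 of 31 at Irf8, 4 of 17 at Irf1) are included.

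Irf2bp2, which held the most peaks, had stretches of either sign. Of its 65 peaks, 45 had a negative log2 fold change (median -0.08), as did 34 of the 52 in the lists of both groups. Positive ones made up 30.8% of the 65 and 34.6% of the 52, against 49.7% and 52.8% over the whole table. The lower values gathered at the 3′ end of the gene and in its downstream flank, from 4000 to 13000 bp downstream of the start site. There, 12 of the 13 peaks were negative (median log2 fold change -0.30, and 11 of the 12 in both lists). In 7 of the 13 every tamoxifen library lay below every oil library, as in 9.99% of all peaks of the table. Summed over the 13 peaks, tags averaged 2576 ± 59.4 in the oil libraries and 2228 ± 62.4 in the tamoxifen libraries (SD, n = 3 each). The peak with the smallest p in this flank (chr8:126585476-126586103, +7647 bp), which lies in the antisense gene Gm26759 and holds 2 Runx matches and 1 AP-1 match, had 263, 273 and 272 tags after oil and 220.4, 220.6 and 195.5 after tamoxifen. Its log2 fold change was -0.35 (SE 0.13, DESeq2 adjusted p = 0.213), and -0.35 with an adjusted p of 0.0398 in edgeR. Tamoxifen replicate 4 had the lowest sum over the 13 peaks (2162 tags, against 2286 and 2237 in replicates 1 and 3). In the opposite direction, 5 of 5 peaks between 50000 and 60000 bp downstream were positive (median log2 fold change 0.36). Among them, the peak at +53492 bp (chr8:126539798-126540091), which holds 2 AP-1 matches, had 53.0, 56.6 and 66.3 tags after oil and 78.3, 113 and 88.5 after tamoxifen (log2 fold change 0.66, SE 0.23, adjusted p = 0.163). The start-site peak held 356, 343 and 349 tags after oil and 267, 332 and 331 after tamoxifen. These 2 stretches were picked out after their values were seen.

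The remaining genes had no peak near the threshold. Irf2 is a long gene with 22 of its 26 peaks over 3000 bp from the start site. Its strongest distal peak, the intronic one with the Ets-IRF match, held 329.8, 288 and 310.0 tags after oil and 247, 236 and 302 after tamoxifen, with overlap through tamoxifen replicate 4 and a log2 fold change of -0.24 (SE 0.13, DESeq2 adjusted p = 0.614). Another intronic peak, at +59655 bp, had the opposite sign, with 199, 162 and 185.5 tags after oil and 233, 207 and 236.5 after tamoxifen (log2 fold change 0.31, SE 0.14, adjusted p = 0.432). Irf5, which acts downstream of Toll-like receptors, had 12 peaks with log2 fold changes from -0.67 to 0.35. Irf3 had 4 peaks from -0.48 to 0.04 and Irf9 6 peaks from -0.40 to 0.05. Of the 4 Irf4 peaks 3 were positive.

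**Figure D4:**
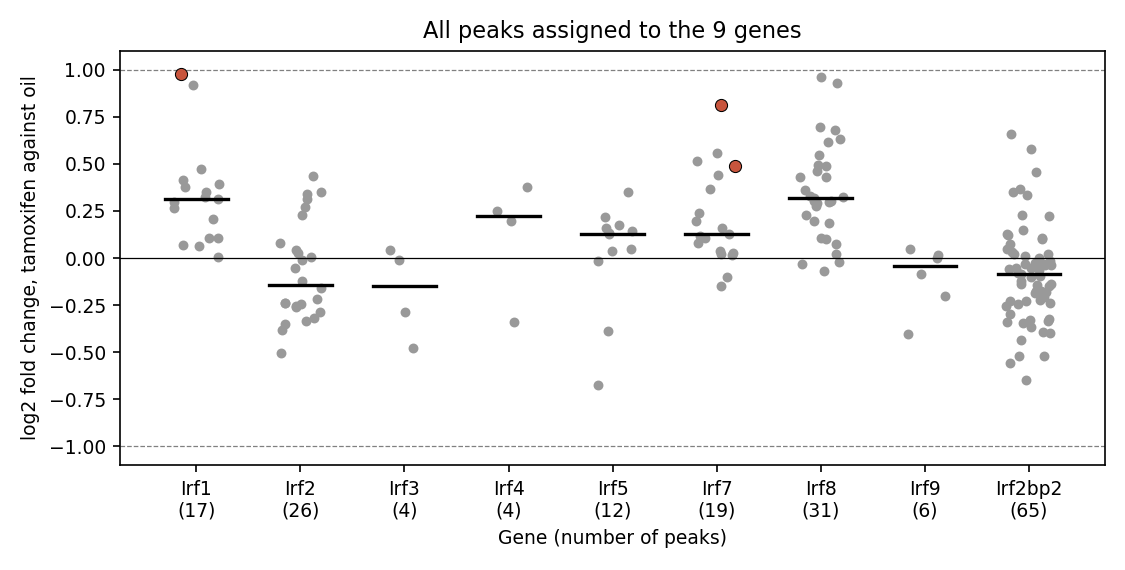
Log2 fold change of each of the 184 peaks by gene, with the gene's median as a bar, the peaks at an adjusted p under 0.05 as filled red points and a fold change of 2 as dashed lines. The 3 filled points are at Irf1 and Irf7, no peak lies beyond a dashed line, and the medians run from -0.15 at Irf3 to 0.32 at Irf8.

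**Figure D5:**
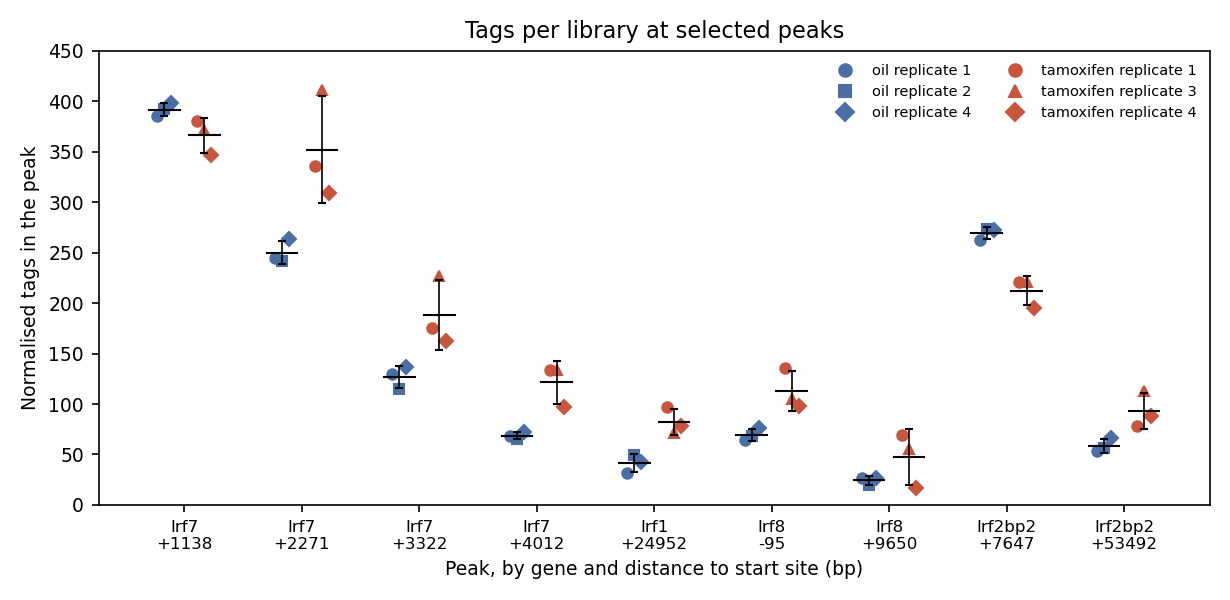
Normalised tags per library at 9 peaks, named by gene and distance from the start site, with the mean and SD of each group. Tamoxifen libraries lie above oil at the Irf7 peaks from +2271 to +4012 bp, at Irf1 +24952, Irf8 -95 and Irf2bp2 +53492 and below oil at Irf7 +1138 and Irf2bp2 +7647, and at Irf8 +9650, a peak of the tamoxifen list alone, tamoxifen replicate 4 (16.8 tags) lies below the oil libraries.

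Elements to which IRFs bind were matched in few of the family's own peaks, at shares near those of the whole table. The ISRE was matched in 4 of 184 peaks (2.17%), against 3.09% of the 175738 peaks on the reference chromosomes, and the Ets-IRF element in 6 (3.26%, against 2.44%). The GAS was matched in 19 (10.3%, against 7.09%) and the AP-1 site in 25 (13.6%, against 8.87%). Runx and GATA matches were found in 39 (21.2%, against 24.2%) and 30 (16.3%, against 19.1%). Among peaks of 200 to 300 bp the order of the ISRE shares turned (2.96% of 135 in the family, against 2.64% of all), while those of the GAS (9.63%, against 6.08%) and the AP-1 site (13.3%, against 7.64%) kept theirs. A match is a description of the letters and not evidence of binding. The 4 peaks with an ISRE match, 2 at Irf7 and 2 at Irf2bp2, had log2 fold changes from -0.03 to 0.15. Peaks of the family were otherwise like the rest of the table in width (median 254 bp against 250 bp) and in tags (median 50.6 against 50.5), and 68.5% were in the peak lists of both groups, against 71.4% of all peaks. Of the 184, 46.7% were intergenic and 30.4% intronic, against 36.4% and 43.2%.

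Among other genes of the pathway, 10 of 555 peaks passed an adjusted p of 0.05 (1.80%, near the 1.39% of all peaks), all higher after tamoxifen. The peaks lay at 41 of the 43 listed genes. The largest share was at the DNA-binding partners of Irf4 and Irf8, where 4 of 71 peaks passed (5.63%). Of these, 3 were at Batf, an AP-1 factor that recruits both IRFs to DNA. The Batf start-site peak held 66.2, 109 and 98.6 tags after oil and 176, 176 and 126 after tamoxifen, and rose by a log2 fold change of 0.79 (SE 0.20, DESeq2 adjusted p = 0.0126). A peak of Batf3, its relative in dendritic cells, at -12704 bp rose by 0.64 (SE 0.17, adjusted p = 0.0173). No peak passed at Spi1 or Spib, the Ets partners, and the Spi1 start-site peak had a log2 fold change of -0.04 (SE 0.12, adjusted p = 0.988). Among the receptors and JAK-STAT components 3 of 176 peaks passed (1.70%), 2 before Ifnar2 and 1 before Jak1, and the start-site peak of Stat2, which joins Irf9, had a log2 fold change of 0.00. The Ifnar2 peak at -6002 bp held 149, 139 and 131 tags after oil and 253, 324 and 194 after tamoxifen (log2 fold change 0.88, SE 0.17, adjusted p = 0.000149). Of 163 peaks at the sensors and kinases that switch on Irf3, Irf5 and Irf7, 1 passed (0.613%), at Traf6. Of 59 peaks at 10 interferon target genes 0 passed with DESeq2 and 0 with edgeR, and 3 had an unadjusted p under 0.05 with DESeq2, against 9.02% of all peaks. The other 2 of the 10 peaks were at Irf2bpl, a relative of Irf2bp2.

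Among the cell-type markers, 1 start-site peak passed an adjusted p of 0.05. In the progenitor list the Cd34 start-site peak rose by a log2 fold change of 1.50 (DESeq2 adjusted p = 8.32e-12), with 94.6 tags after oil and 269.7 after tamoxifen on average. The other progenitor markers, Kit, Myb and Gata2, had log2 fold changes of 0.05, -0.07 and 0.09. Among the markers listed as dendritic, the Flt3 start-site peak had a log2 fold change of 0.73 (DESeq2 adjusted p = 0.0519). The other dendritic markers with a peak, Zbtb46 and Itgax, went the other way (-0.05 and -0.22). The summed level of the 3 dendritic markers with a peak was 569 to 613 tags after oil and 577 to 628 after tamoxifen. The summed level of the 3 B-cell markers with a peak was 135 to 158 and 152 to 189 tags, that of the 3 T-cell markers 99.3 to 133 and 106 to 118, that of the 2 mature myeloid markers 48.8 to 50.7 and 51.2 to 71.3, and that of the 5 erythroid markers 1087 to 1169 and 1048 to 1092. The part of such cells in the differences at Irf8, Irf7 and Irf1 was not tested.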

How the data were processed

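ATAC-seq was measured in 6 libraries, 3 per group. Per the file headers and labels, the authors mapped reads to mm10 with Bowtie2, called HOMER peaks per group, merged the lists and counted tags per library. The deposited values are estimated counts in steps of 0.5, not normalised and limited to 3 tags per position, which caps the highest peaks. The deposited table gives the gene and start-site distance of each peak, which was used as it stands. Tags were rounded and all 175929 peaks fitted with DESeq2 1.42.0 (R 4.3.3; Wald test, default settings, Benjamini-Hochberg over all peaks), after the study's methods, and with edgeR 4.0.16 (quasi-likelihood, robust) as an alternative. The fit was tested on simulated data. The lowest filter, a mean of 10 tags, removed no peak, and 1 of 30 was added after the data were seen. All per-sample columns of the table were used. Named peaks are, for each gene, the one nearest the start site and the tallest over 3000 bp away, all at an adjusted p under 0.05, and the 10 with the smallest p. Other peaks named in the text were chosen after their values were seen. Members and lists were chosen with earlier results of these data known. Motifs were searched in the GRCm38 reference, of which no peak crossed a chromosome end, and gene overlaps were taken from GENCODE M21. Both groups have a replicate 1 and a replicate 4, which no label ties to a shared mouse.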

Additional observations from a re-analysis of the deposited data

How the results depend on the processing

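With TMM factors, total tags in peaks, a mean of at least 10 tags or a mean of at least 30 tags, the same 3 peaks of the family passed an adjusted p of 0.05. With total mapped tags, and with distal and promoter-proximal peaks fitted separately, the Irf8 start-site peak joined them. edgeR called 7 peaks (31 at an unadjusted p), the 3 among them, and doubled tags, which count each mate on its own, called 8. At the adjusted limit the share of all peaks rose as well, to 2.92% with edgeR and 3.15% with doubled tags. The share at an unadjusted p is not given for edgeR. At an adjusted p under 0.1 there were 5, a limit for which the share of all peaks is not given. Leaving out 1 library gave 0 to 8 peaks at an adjusted p under 0.05, in fits where 0.358% to 3.71% of all peaks passed. In those fits 1 to 16 peaks at the other pathway genes passed the same limit. There were 0 to 2 family peaks with a fold change over 2 as well, and 9 to 30 at an unadjusted p under 0.05. The share of all peaks is not given for these last counts. With all libraries, 10 of 92 peaks within 10000 bp and 12 of 135 within 50000 bp had an unadjusted p under 0.05. So had 44 of 561 within 100000 bp of a member's start site, whichever gene they were assigned to. Over the whole table the share was 9.02%.

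The replicate block could be fitted on the 4 libraries numbered 1 and 4 only, and gave 0 peaks at an adjusted p and 1 at an unadjusted p, against 0 and 3 in the same libraries without the block. Few peaks passed anywhere in these fits, with 0.0296% of all peaks at an adjusted p under 0.05 with the block and 0.0978% without it. The share of all peaks at an unadjusted p is not given for these fits. Libraries of the same number deviated from their group means with correlations of -0.04 and 0.05. Deviations from means of 3 libraries, with counting error in many peaks, cannot tell whether libraries of the same number shared a batch. Fewer libraries entered the fits with and without the block. The sign of 2 uncalled Irf9 peaks turned. The log2 fold change at the Irf9 start site was -0.0109 with total tags in peaks, -0.0287 with the replicate block, -0.0288 without the block on the same 4 libraries, -0.0032 with a mean of at least 30 tags, and -0.0329 to 0.0372 with 1 library left out. That of the Irf9 peak at +3562 bp was -0.0944 to 0.141 with 1 library left out. With a median of 45 to 57 tags per library, small differences at low peaks were not detectable at this depth.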
